A study of Mus musculus with 14 samples.

Results

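The 37 genes of the mouse mitochondrial genome were followed in 14 libraries of Lgr5-positive intestinal stem cells. They were taken as every gene whose symbol begins with mt-, in tables of 55335 genes. They comprise 13 protein genes, 2 ribosomal RNA genes and 22 transfer RNA genes. Polyadenylated RNA was sequenced from cells sorted by the EGFP that is produced from the Lgr5 locus, which marks the dividing stem cells at the crypt base. In the first experiment all mice carried the Lgr5CreERT2-IRES-GFP allele, which puts a tamoxifen-inducible Cre recombinase under Lgr5 control, and a Chrm3 gene flanked by loxP sites (flox/flox). Chrm3 encodes the M3 muscarinic acetylcholine receptor. The groups named WT received vehicle and the groups named KO received tamoxifen to delete Chrm3 in Lgr5 cells, so deletion and tamoxifen cannot be told apart. Each of these was split into an NT and an ES group (n = 2 libraries each), ES being the procedure that followed the injection. The letters NT and ES are not spelled out in the sources used here, and neither is the age of these mice. In the second experiment mice with the Lgr5CreERT2-IRES-GFP allele alone were 2 months (young) or 18 months (old) of age, with n = 3 libraries each. Libraries are called by group and replicate number, so that KO NT 2 is replicate 2 of the KO NT group.

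The mitochondrial genome is a small circle that is transcribed from both strands into long precursor RNAs. Transfer RNA genes lie between most of the ribosomal and protein genes, and their excision by RNase P at one end and the RNase Z enzyme Elac2 at the other releases the RNAs between them. The proteins it encodes are subunits of respiratory complexes I, III and IV and of the ATP synthase, and its ribosomal and transfer RNAs serve only the translation of those proteins inside the mitochondrion. All other proteins of mitochondria, the RNA polymerase and the ribosomal proteins included, are made from nuclear genes. Lgr5 stem cells are known to have active mitochondria and to depend on mitochondrial respiration.

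The transfer RNA genes called in a comparison were mt-Te, mt-Tl1 and members of 2 neighbourhoods, which were picked out as neighbourhoods after their values were seen. The first neighbourhood holds the 5 transfer RNA genes between mt-Co3 and mt-Nd5, all read in the direction of most mitochondrial genes. Their GRCm38 sequences, from GENCODE M21, are shown 5′ to 3′ with the anticodon, the bases that read the codon, in capitals. The capitals were placed by a search for a triplet flanked by a stem of 5 base pairs. In mt-Ts2 they should not be read as the anticodon. Only 2 of 5 pairs form there, and an earlier GCT in that sequence lies outside the stretch that was searched.

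mt-Tg (glycine, chrM:9391-9458, + strand): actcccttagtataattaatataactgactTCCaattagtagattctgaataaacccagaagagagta

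mt-Tr (arginine, chrM:9808-9875, + strand): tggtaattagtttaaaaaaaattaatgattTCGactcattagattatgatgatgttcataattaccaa

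mt-Th (histidine, chrM:11546-11612, + strand): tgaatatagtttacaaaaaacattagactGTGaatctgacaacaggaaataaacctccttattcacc

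mt-Ts2 (serine, chrM:11613-11671, + strand): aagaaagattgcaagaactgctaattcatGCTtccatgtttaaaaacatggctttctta

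mt-Tl2 (leucine, chrM:11671-11741, + strand): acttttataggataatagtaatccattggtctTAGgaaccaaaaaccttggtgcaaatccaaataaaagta

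The last 3 of these abut one another between mt-Nd4 and mt-Nd5. The second neighbourhood holds the 5 transfer RNA genes between mt-Nd2 and mt-Co1, of which mt-Tw is read in the main direction and the other 4 from the opposite strand. They are shown with mt-Te, which lies between mt-Nd6 and mt-Cytb, and mt-Tl1, which lies between mt-Rnr2 and mt-Nd1, again with the anticodon in capitals.

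mt-Tw (tryptophan, chrM:4950-5016, + strand): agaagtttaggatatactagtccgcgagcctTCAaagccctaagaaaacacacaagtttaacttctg

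mt-Ta (alanine, chrM:5018-5086, - strand): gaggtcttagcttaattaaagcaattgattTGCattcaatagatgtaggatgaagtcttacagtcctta

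mt-Tn (asparagine, chrM:5089-5159, - strand): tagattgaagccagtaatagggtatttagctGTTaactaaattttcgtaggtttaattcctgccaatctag

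mt-Tc (cysteine, chrM:5192-5257, - strand): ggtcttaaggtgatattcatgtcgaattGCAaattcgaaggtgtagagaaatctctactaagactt

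mt-Ty (tyrosine, chrM:5260-5326, - strand): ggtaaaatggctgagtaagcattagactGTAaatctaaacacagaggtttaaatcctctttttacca

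mt-Te (glutamate, chrM:14071-14139, - strand): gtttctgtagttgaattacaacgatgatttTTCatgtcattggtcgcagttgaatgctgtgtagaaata

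mt-Tl1 (leucine, chrM:2676-2750, + strand): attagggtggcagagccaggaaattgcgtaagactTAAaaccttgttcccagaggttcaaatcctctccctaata

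The 22 transfer RNA genes are 59 to 75 bases long. A count at so short a gene does not separate mature transfer RNA from precursor RNA or from a neighbouring transcript that runs into it, and mature mitochondrial transfer RNAs carry no poly(A) tail. Whether counting used strand is not stated in the sources used here, so for genes read from the minor strand the reads of both strands cannot be told apart.

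Total counts ranged from 26.7 to 36.9 M per library. Chrm3 had 213 to 343 counts in the KO libraries and 291 to 386 in the WT libraries, and passed the test as lower in ES (log2 fold change -0.68 ± 0.17, edgeR quasi-likelihood test, adjusted p = 0.0363) but not in NT (-0.50 ± 0.16, adjusted p = 0.1195). Which exons the deletion removes is not stated in those sources, so gene-level counts test the KO label only in part. The stem cell markers Lgr5 (80.3 to 133 CPM, counts scaled to the same library total) and Olfm4 and the epithelial marker Epcam were present in every library. Of the stromal markers Des was at 0 in 14 of 14 libraries and Col1a1 in 11, while the immune marker Ptprc had 5.29 to 24.1 CPM. The sources used here do not say that the libraries came from different animals, so each p-value reflects the spread among these libraries, which may be technical.

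The 13 protein genes held nearly all mitochondrial counts. Their share of all counts was 6.69% and 6.80% in the WT NT libraries and 6.30% and 6.82% in the WT ES libraries. The KO NT libraries had 6.85% and 8.56%, the KO ES libraries 6.61% and 7.36%. In the ageing experiment it was 6.03%, 5.96% and 6.84% in young and 6.40%, 6.64% and 6.89% in old. KO NT 2 stood above every other library and KO ES 2 came next, while young and old overlapped. KO NT 1, the other library of its group, lay 0.032 percentage points above the highest WT library, so the group mean of 7.71% ± 1.21 (SD, n = 2) rests on 1 library. The log2 ratio of the mean shares of all members was 0.20 for KO against WT in NT and 0.03 without KO NT 2. It was 0.10 for KO against WT in ES and 0.01 without KO ES 2, -0.04 for ES against NT in WT and 0.02 without WT ES 1, and 0.09 for old against young and 0.15 without young 3. For ES against NT in KO it was -0.14 with all libraries and 0.03 without KO NT 2.

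The ribosomal RNA genes showed another order of libraries. They held 0.0664% and 0.0674% of the counts in WT NT and 0.0832% and 0.0826% in WT ES. The KO NT libraries had 0.0986% and 0.137%, the KO ES libraries 0.0956% and 0.132%. Every KO library was above every WT library, and every WT ES library was above every WT NT library. In young the share was 0.118%, 0.125% and 0.117%, and in old 0.134%, 0.144% and 0.133%, without overlap. Libraries here come from poly(A)-selected RNA, so these shares cover only the ribosomal RNA that passed that selection.

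The transfer RNA genes together held 0.0325% to 0.0433% of the counts. WT NT had the lowest shares (0.0325% and 0.0335%), followed by WT ES (0.0366% and 0.0359%), KO ES (0.0389% and 0.0393%) and KO NT (0.0404% and 0.0433%), with no overlap between these groups. Young libraries had 0.0380%, 0.0393% and 0.0395% and old libraries 0.0402%, 0.0419% and 0.0417%, again without overlap. These shares are sums over genes that moved in different directions, which are given apart for each comparison.

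**Figure D1:**
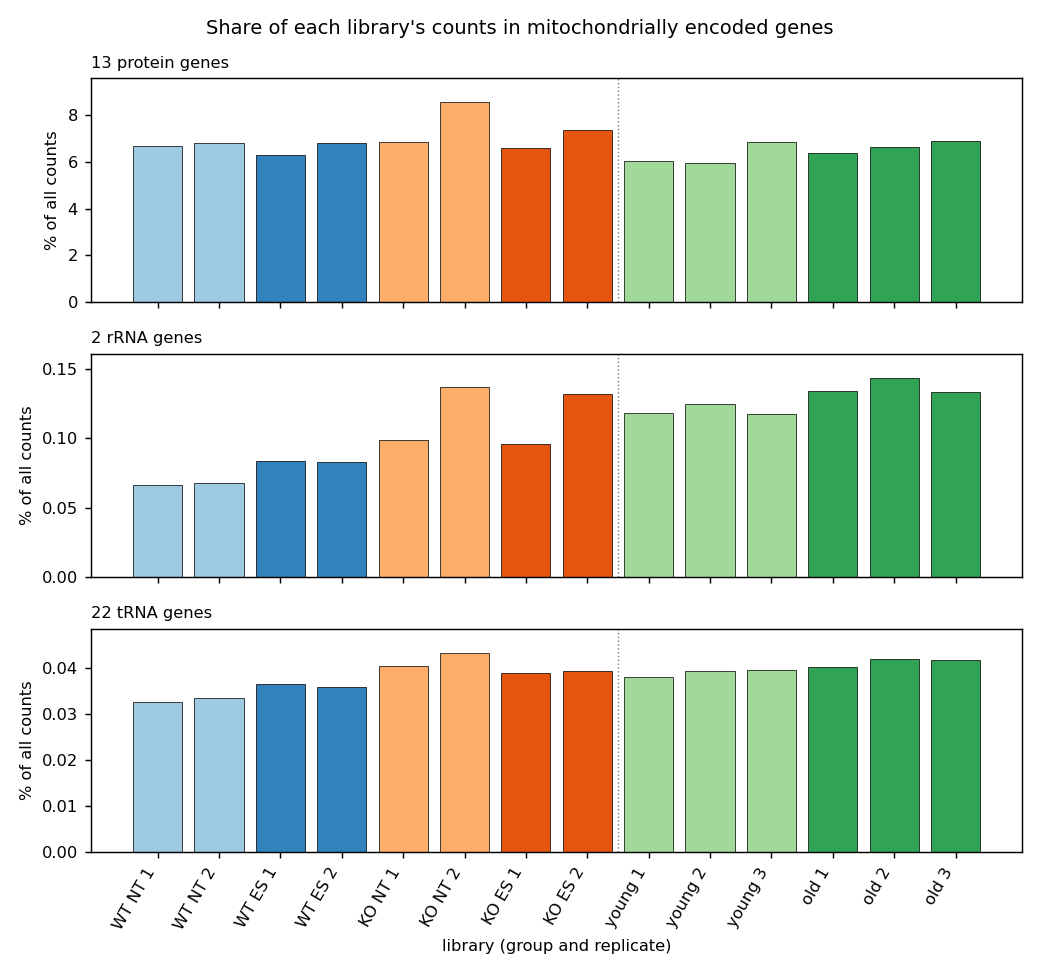
Share of each library's counts (percent, axes from 0) in the 13 protein, 2 rRNA and 22 tRNA genes, 1 bar per library, coloured by group; the dotted line parts the Chrm3 experiment from the ageing experiment, which were scaled and tested apart. The protein share stands out in KO NT 2 (8.56%), while the rRNA share is higher in all 4 KO libraries than in the 4 WT libraries.

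Per length, the protein genes differed over a wide range. RPKM values, counts scaled to library total and annotated gene length, had a median over the 14 libraries of 13316 for mt-Co1, the catalytic subunit of complex IV. Next came mt-Atp8 with 10183 and mt-Cytb, the cytochrome b of complex III, with 8011. The ATP synthase subunit mt-Atp6 had 7335, and the complex IV subunits mt-Co2 and mt-Co3 had 5967 and 4709. Of the complex I subunits mt-Nd1 had 5893, mt-Nd4 3630, mt-Nd2 3590, mt-Nd4l 3114, mt-Nd6 2959, mt-Nd5 2778 and mt-Nd3 904. The first 4 places (mt-Co1, mt-Atp8, mt-Cytb, mt-Atp6) and the last (mt-Nd3) were the same in 14 of 14 libraries. The complex IV gene mt-Co3 kept the place numbered 7, mt-Co2 and mt-Nd1 changed places in 4 libraries, and mt-Nd4, mt-Nd2, mt-Nd4l, mt-Nd6 and mt-Nd5 kept no fixed order among themselves.

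In the other classes, the large ribosomal RNA mt-Rnr2 had a median of 644 RPKM and the small one, mt-Rnr1, 163. Among transfer RNA genes mt-Ts1 (serine) had 1424, mt-Te 962 and mt-Tl1 (leucine) 848, and mt-Tf (phenylalanine) was lowest with 2.08. The mt-Ts1 gene overlaps the end of mt-Co1 by 3 bases on the opposite strand. At 3 to 10 counts per library mt-Tf did not pass the count filter, so 36 of the 37 members were tested in each table.

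The transfer RNA genes outside the neighbourhoods that are not described elsewhere passed no test. In the Chrm3 and the ageing experiment, mt-Tp (proline) had 13.8 to 18.4 and 14.2 to 22.4 CPM after TMM scaling, and mt-Td (aspartate) had 0.334 to 0.596 and 0.252 to 0.370. Isoleucine gene mt-Ti ranged from 0.577 to 1.61 and from 0.593 to 1.31 CPM, glutamine gene mt-Tq from 1.21 to 1.76 and from 0.875 to 1.82, and valine gene mt-Tv from 0.273 to 0.762 and from 0.332 to 0.635. The methionine gene mt-Tm had 2.06, 2.56 and 1.68 CPM in young and 1.45, 1.38 and 1.16 in old (-0.65 ± 0.27, edgeR adjusted p = 0.189). The threonine gene mt-Tt had 4.36, 5.15 and 4.37 CPM in young and 5.18, 5.98 and 5.57 in old (0.27 ± 0.16, adjusted p = 0.382). In mt-Tm and mt-Tt the ages did not overlap, but neither difference passed.

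The order per length depends on nuclear copies of mitochondrial DNA. A stretch of chromosome 1 (GRCm38, 24611535 to 24616197) holds 7 annotated pseudogenes that match mitochondrial protein genes over at least 99% of aligned bases. Gm28661 matches 681 bases of mt-Co2 without a difference and was given at most 101 and at the median 100.2 counts per 100 counts of mt-Co2. Gm28437 matches mt-Co3 (783 bases, 99.6 to 101 per 100) and Gm10222 matches mt-Nd4l (294 bases, 99.7 to 100.4 per 100), both without a difference. Gm10925 matches mt-Atp6 (678 bases, 107 to 109 per 100) and Gm28438 matches mt-Nd3 at all but 1 of 345 bases (88.3 to 97.8 per 100). The remaining pair hold only part of their gene, Gm28439 876 bases of mt-Nd4 (41.5 to 47.8 per 100) and Gm29216 483 bases of mt-Co1 (7.03 to 9.53 per 100).

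The 5 copies that span nearly the whole gene thus had between 88.3 and 109 counts per 100 counts of the gene they match, in every library. How a read that fits both places was counted is not stated in the sources used here, so levels of these 7 mitochondrial genes are uncertain. The copies took 1.60% to 2.30% of all counts, and with them the share of KO NT 2 was 11.0% against 7.72% to 9.51% in the other libraries. With the copies added, mt-Atp6 came first per length (15218 RPKM) before mt-Co1 (14557) and mt-Co2 (11950). The copies changed levels between genes, but no call between groups: adding them left the same 7 members called for KO against WT in NT and the same 6 for old against young.

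**Figure D2:**
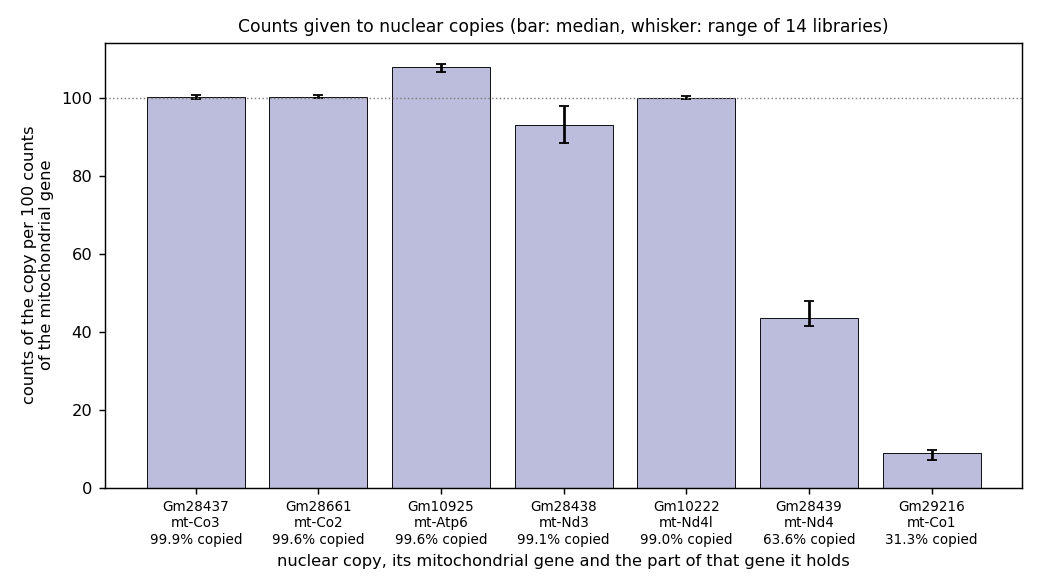
Counts given to each nuclear copy per 100 counts of the mitochondrial gene it matches (bars start at 0; bar, median; whisker, range over the 14 libraries), with the part of the gene that the copy holds written below. The 5 copies that span nearly the whole gene lie between 88.3 and 109 (dotted line, 100), the partial copies Gm28439 and Gm29216 near 43.5 and 8.81.

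A further source of shared reads lies within the mitochondrial genome. The end of mt-Atp8 and the start of mt-Atp6, which are translated from one RNA, overlap by 43 bases (chrM:7927-7969), shown with the start codon of mt-Atp6 in capitals.

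mt-Atp8 and mt-Atp6 overlap: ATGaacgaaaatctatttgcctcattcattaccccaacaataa

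With shared bases taken off the lengths, mt-Atp8 had 12903 RPKM and mt-Atp6 7842, which left mt-Atp8 below mt-Co1 (13342). The mt-Nd4l and mt-Nd4 genes overlap by 7 bases, and mt-Nd6 overlaps mt-Nd5 by 14 bases on the opposite strand.

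As a share of the 13 genes' own counts, which removes a shift common to all of them, mt-Co1 took 28.5% to 32.8% and mt-Cytb 13.3% to 14.6%. The complex I gene mt-Nd6, the one protein gene read from the minor strand, varied most. It took 2.04% and 2.08% in WT NT and 1.90% and 2.14% in WT ES. The KO NT libraries had 2.36% and 2.93%, the KO ES libraries 2.48% and 2.74%, so that every KO library lay above every WT library. In the ageing experiment mt-Nd6 took 2.01%, 2.08% and 2.26% in young and 2.39%, 2.32% and 2.32% in old, also without overlap. Its neighbour mt-Nd5 took 6.89%, 6.86%, 6.19% and 7.16% in the WT libraries and 7.74%, 8.26%, 7.96% and 8.09% in the KO libraries, and in young and old the ranges overlapped (7.11% to 8.46% and 7.61% to 8.36%).

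The shortest protein genes took a low share in 4 libraries. The genes mt-Atp8, mt-Nd4l and mt-Nd3 (204, 297 and 348 bases) together took 4.53% in KO NT 2, 4.49% in KO ES 2, 4.45% in young 3 and 4.35% in old 3, against 4.68% to 5.29% in the other 10 libraries. The same 4 libraries were lowest for short nuclear protein-coding genes. Log2 deviations were taken from each gene's mean within its own experiment, over nuclear protein-coding genes of at least 10 CPM. The median deviation of genes under 1000 bases minus that of longer genes was -0.11, -0.07, -0.13 and -0.19 in these libraries and -0.01 to 0.18 in the others. The part of gene length in the results below was not tested. In mt-Co3 (784 bases) the low share was seen in KO NT 2 (4.64%) and KO ES 2 (4.73%) against 5.19% to 5.93% elsewhere.

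**Figure D3:**
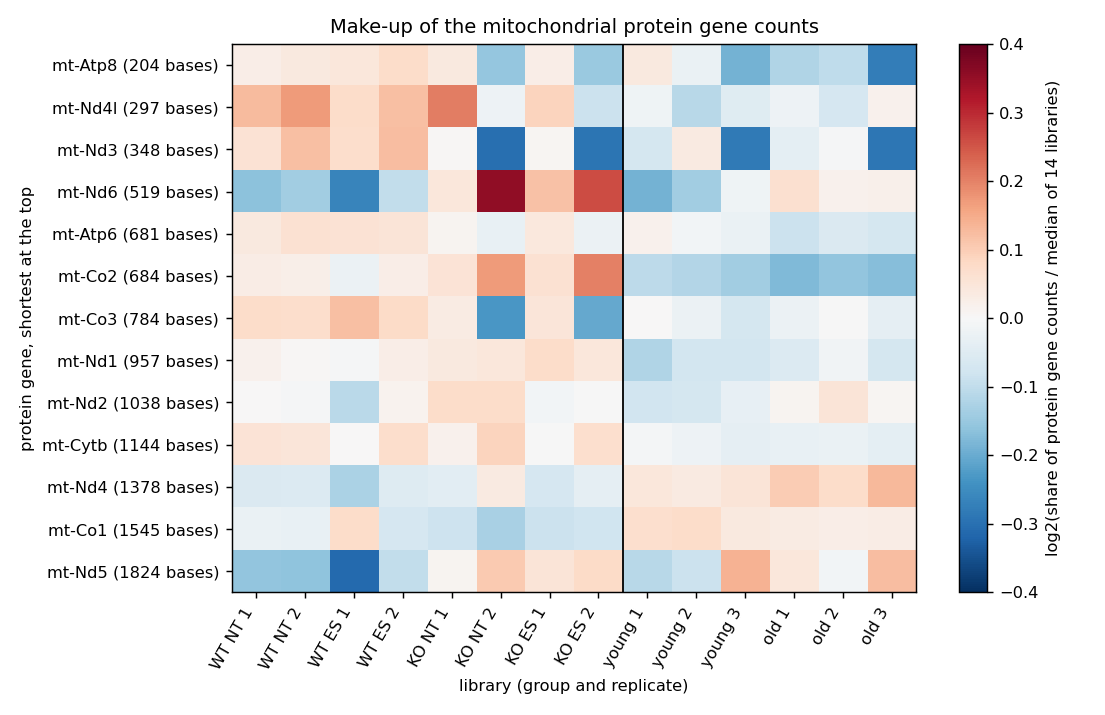
Share of the 13 protein genes' counts that each gene took, as log2 of its ratio to the gene's median over 14 libraries (colour), with genes sorted by length and libraries by group. The mt-Nd6 row runs from 1.90% in WT ES 1 to 2.93% in KO NT 2, and the mt-Nd3 row is lowest in KO NT 2, KO ES 2, young 3 and old 3.

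KO was compared with WT in NT to ask what tamoxifen and the intended Chrm3 deletion changed without ES. The large ribosomal RNA and 6 transfer RNA genes were higher in KO, no member was lower, and no protein gene passed the test. A change is called where the adjusted p of the edgeR quasi-likelihood test, over all 17364 tested genes, is under 0.05, and ± after a log2 fold change is its standard error. The 7 called of 36 members stand beside 4.47% of all tested genes called in this comparison, 2.36% as higher and 2.11% as lower. Of the 36 members 21 did not overlap between the groups, beside 48% of all tested genes. The median log2 fold change was 0.23 for the protein genes, 0.95 for the ribosomal RNAs and 0.31 for the transfer RNAs, beside -0.01 for all tested genes.

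Among protein genes the changes by complex were as follows. In complex I mt-Nd6 had 1352 and 1404 CPM (after TMM scaling, here and below) in WT NT and 1609 and 2581 in KO NT. Its log2 fold change of 0.60 ± 0.18 did not pass (adjusted p = 0.101), and neither did that of mt-Nd5 (0.45 ± 0.14, adjusted p = 0.118). In both genes the KO NT libraries lay above the WT NT libraries, but most of the difference came from KO NT 2: without it the values were 0.24 ± 0.12 and 0.21 ± 0.11. The other complex I genes ranged from -0.03 for mt-Nd3 to 0.30 for mt-Nd2, with adjusted p from 0.211 to 0.897. In complex III mt-Cytb had 9401 and 9558 CPM in WT NT and 9420 and 12828 in KO NT (0.23 ± 0.13, adjusted p = 0.405), the groups overlapping. In complex IV mt-Co2 (0.32 ± 0.14) exceeded mt-Co1 (0.14 ± 0.10) and mt-Co3 (0.04 ± 0.06), and the ATP synthase genes had 0.16 ± 0.10 (mt-Atp6) and 0.12 ± 0.07 (mt-Atp8), with adjusted p from 0.274 to 0.778 for these 5.

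Both ribosomal RNAs lay above WT NT in both KO NT libraries. The large RNA mt-Rnr2 had 544 and 554 CPM in WT NT and 813 and 1087 in KO NT, a rise of 0.79 ± 0.13 (adjusted p = 0.00725). Without KO NT 2 the rise was 0.58 ± 0.10 (adjusted p = 0.00919), so that it did not rest on that library. The small RNA mt-Rnr1 had 113 and 115 CPM in WT NT and 166 and 324 in KO NT (1.11 ± 0.32, adjusted p = 0.0856) and did not pass. KO NT 2 stood far above KO NT 1, and without it the difference was 0.56 ± 0.28 (adjusted p = 0.346). Per 100 counts of mt-Rnr2, mt-Rnr1 had 18.7 to 20.7 counts in the WT libraries. It had 20.4 and 29.8 in the KO NT libraries and 18.7 and 30.4 in the KO ES libraries, so that the KO libraries numbered 2 stood apart from all others.

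Of the transfer RNA genes, the neighbourhood between mt-Nd2 and mt-Co1 rose nearly as a whole. The alanine gene mt-Ta had 14.6 and 15.4 CPM in WT NT and 23.2 and 21.4 in KO NT (0.57 ± 0.12, adjusted p = 0.0195). The asparagine gene mt-Tn had 17.7 and 18.8 against 28.5 and 26.0 (0.58 ± 0.12, adjusted p = 0.0195). In these genes KO NT 2 was not the higher library of its group. The cysteine gene mt-Tc rose by 0.52 ± 0.11 (adjusted p = 0.0244) and the tryptophan gene mt-Tw by 0.63 ± 0.14 (adjusted p = 0.0255), while the tyrosine gene mt-Ty missed the threshold (0.47 ± 0.12, adjusted p = 0.0583). All 5 lay above both WT NT libraries in both KO NT libraries.

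A further 2 transfer RNA genes rose, and in both KO NT 2 was the higher library. The glutamate gene mt-Te had 49.7 and 53.0 CPM in WT NT and 70.5 and 119 in KO NT (0.89 ± 0.20, adjusted p = 0.0354), and 0.47 ± 0.13 without KO NT 2 (adjusted p = 0.0875). The leucine gene mt-Tl1, which follows mt-Rnr2, had 51.1 and 51.5 against 62.1 and 71.8 (0.38 ± 0.08, adjusted p = 0.0235), and 0.29 ± 0.08 without KO NT 2 (adjusted p = 0.0827). The lysine gene mt-Tk had 2.20 and 2.25 CPM in WT NT and 3.88 and 3.40 in KO NT (0.71 ± 0.23, adjusted p = 0.123) and did not pass. The serine gene mt-Ts1, the highest per length, had 0.04 ± 0.08 (adjusted p = 0.857).

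KO NT 2 went the other way in the neighbourhood between mt-Co3 and mt-Nd5. There mt-Th had 7.04 and 8.43 CPM in WT NT, 9.75 in KO NT 1 and 3.52 in KO NT 2. The same split was seen for mt-Ts2 (7.04, 7.96, 9.83 and 3.25) and mt-Tl2 (8.61, 9.94, 12.6 and 4.40). KO NT 2 was thus the lowest and KO NT 1 the highest of the 4 libraries in each, and the tests gave -0.19 ± 0.34, -0.17 ± 0.36 and -0.11 ± 0.33 (adjusted p from 0.826 to 0.911). The 3 adjoining genes had 368 counts in KO NT 2 and 1193 in KO NT 1, or 7.92 and 31.3 per 10000 counts of the flanking mt-Nd4 and mt-Nd5. These ratios were 22.5 to 30.6 in the 6 other libraries of the experiment.

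The calls in this comparison depend on single libraries. Without KO NT 2, 3 of the 7 remained called (mt-Rnr2, mt-Tn and mt-Ta), beside 3.75% of all genes tested in that fit. Without KO NT 1, 18 members were called, 15 higher, 3 lower (mt-Th, mt-Ts2 and mt-Tl2), among them 5 of the 7, beside 4.63% of all tested genes. With either WT NT library left out, or with no count filter, 0 members were called, beside 0.79% to 1.07% of all tested genes, and limma-voom called 6, all but mt-Te. Other measures moved with KO here: 11 of 11 genes of the early response to handling, such as Fos and Jun, rose (median 1.55, summed level 1402 to 1418 CPM in WT NT and 2781 to 4166 in KO NT). Goblet cell markers fell in 7 of 7 cases (4968 to 5084 CPM against 2527 to 2598) and tuft cell markers in 5 of 5. Of 7 tested immune markers only 1 had a log2 fold change above 0, and it was called as higher (median of the 7, -0.22). The immune markers had summed levels of 427 to 434 CPM in WT NT and 498 to 585 CPM in KO NT, with Ptprc above 0 in every library. The part of these measures in the mitochondrial result was not tested, and in bulk RNA fewer cells of a type and less RNA per cell cannot be told apart.

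**Figure D4:**
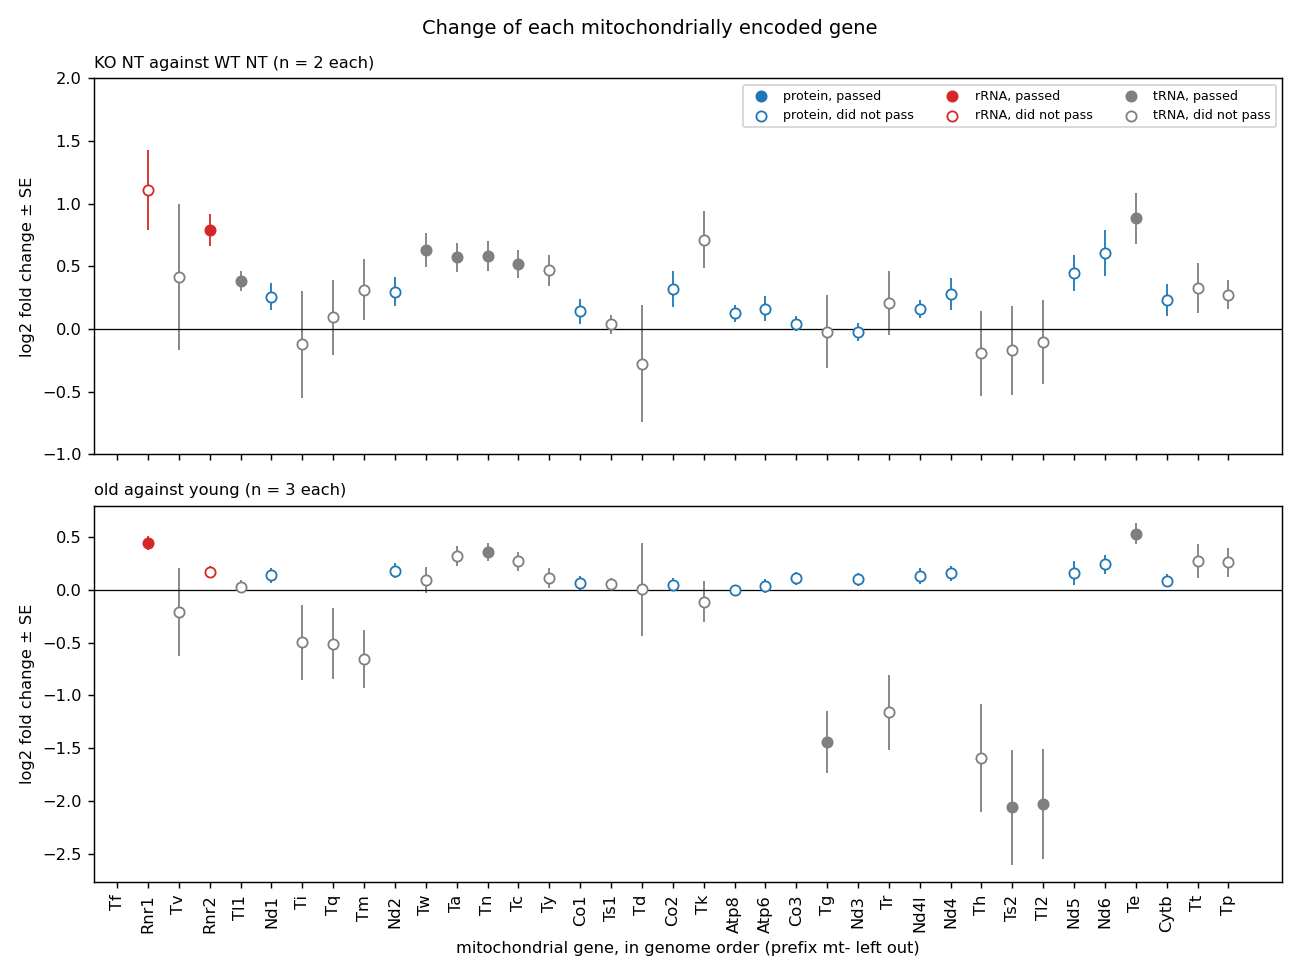
Log2 fold change of the 36 tested members (points; bars, ± 1 SE) in genome order, for KO NT against WT NT (top, n = 2 each) and old against young (bottom, n = 3 each); filled points passed the adjusted p of 0.05, and mt-Tf was not tested. In the top panel mt-Rnr2 (0.79), mt-Te (0.89), mt-Tl1 (0.38) and 4 tRNA genes from mt-Tw to mt-Tc are filled, and in the bottom panel mt-Tg, mt-Ts2 and mt-Tl2 lie far below 0.

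The comparison of KO with WT after ES gave 0 called members of 36 by edgeR (7.56% of all tested genes called, 3.09% as higher and 4.47% as lower), with 5 at an unadjusted p under 0.05, beside 22.9% of all tested genes, and 0 by DESeq2 and by limma-voom. The large ribosomal RNA mt-Rnr2 had 687 and 695 CPM in WT ES and 800.0 and 1026 in KO ES (0.40 ± 0.13, adjusted p = 0.0908). The small one, mt-Rnr1, had 140.4 and 130.2 against 149.5 and 312 (0.77 ± 0.32, adjusted p = 0.175). Neither overlapped, and for mt-Rnr1 the difference lay almost wholly in KO ES 2. The glutamate gene mt-Te had 47.6 and 54.1 CPM in WT ES and 65.7 and 86.5 in KO ES (0.58 ± 0.21, adjusted p = 0.116), and mt-Nd6 had 1193 and 1456 against 1631 and 2052 (0.48 ± 0.18, adjusted p = 0.147). The genes between mt-Nd2 and mt-Co1 did not separate the groups: mt-Ta had 22.3 and 19.2 CPM in WT ES and 22.3 and 19.0 in KO ES (-0.01 ± 0.11, adjusted p = 0.968). Of the 36 members 12 did not overlap, beside 53.3% of all tested genes, and the median was 0.10 for the protein genes, 0.59 for the ribosomal RNAs and 0.08 for the transfer RNAs.

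The KO comparisons in NT and in ES share no libraries. Their values for mt-Rnr2 were 0.79 and 0.40, for mt-Rnr1 1.11 and 0.77, for mt-Te 0.89 and 0.58 and for mt-Ta 0.57 and -0.01. A call in one and not in the other is not shown to be a difference, and the test of that difference is the one between the ES effects given below. Goblet cell markers were lower in KO in 7 of 7 cases here too (10107 to 10315 CPM against 4311 to 4346). Absorptive enterocyte markers were lower in 10 of 12 and higher in 1. Enteroendocrine markers were lower in 6 of 7, tuft markers in 3 of 5 tested and Paneth markers in 2 of 7. Stem cell markers were higher in 4 of 12 and early response genes in 4 of 11. The part of these measures was not tested.

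ES was compared with NT in WT to ask what the procedure changed with Chrm3 intact. The edgeR test called 0 of 36 members (3.48% of all tested genes called, 2.1% as higher and 1.39% as lower), with 5 at an unadjusted p under 0.05, beside 18.6% of all tested genes. DESeq2 called 2 (mt-Ta and mt-Tn), beside 6.01% of all tested genes, and limma-voom 0. All 13 protein genes had log2 fold changes just under 0, from -0.08 for mt-Nd4l to -0.00 for mt-Co1 and mt-Atp8 (median -0.05), and none separated the groups. The RNAs outside the protein class were mostly above 0, namely both ribosomal RNAs and 19 of 21 transfer RNA genes, with medians of 0.29 and 0.25. For mt-Ta the values were 14.6 and 15.4 CPM in WT NT and 22.3 and 19.2 in WT ES (0.47 ± 0.12, adjusted p = 0.0561), and for mt-Tn 17.7 and 18.8 against 27.1 and 23.2 (0.47 ± 0.12, adjusted p = 0.0597). The ribosomal RNA mt-Rnr2 had 544 and 554 against 687 and 695 CPM (0.33 ± 0.13, adjusted p = 0.200). The groups did not overlap in these 3 genes, nor in 16 of the 36 members altogether, beside 52.8% of all tested genes.

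Markers of other cell types also moved with ES in WT: goblet markers were higher in 7 of 7 cases (4968 to 5084 CPM in WT NT and 10107 to 10315 in WT ES) and stem cell markers lower in 8 of 12. Their part in the values above was not tested. Fitted on the 4 WT libraries alone, the comparison called 4 members as higher, mt-Rnr2, mt-Rnr1, mt-Tn and mt-Ta, beside 11.4% of all genes tested in that fit.

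In the KO groups, ES against NT again gave 0 of 36 called members by edgeR (0.513% of all tested genes called, 0.415% as higher and 0.0979% as lower). At an unadjusted p under 0.05 there were 5, beside 8.6% of all tested genes, and 0 were called by DESeq2 and limma-voom. All 13 protein genes were under 0, from -0.24 ± 0.07 for mt-Nd4l (adjusted p = 0.271) to -0.12 ± 0.06 for mt-Co3, with a median of -0.15. This fall rests in part on the high values of KO NT 2. KO NT 1 had 20036 CPM of mt-Co1, between KO ES 1 (19290) and KO ES 2 (22064). For mt-Cytb its 9420 CPM likewise lay between 8986 and 10730, and for mt-Nd6 its 1609 CPM lay below both (1631 and 2052). Only 4 protein genes (mt-Nd3, mt-Nd4l, mt-Atp8 and mt-Co3) were lower in both KO ES libraries without overlap. Both ribosomal RNAs were close to 0, at -0.06 ± 0.13 for mt-Rnr2 and -0.09 ± 0.31 for mt-Rnr1, in groups where the libraries numbered 2 exceeded those numbered 1. Glycine transfer RNA mt-Tg had 8.19 and 5.07 CPM in the KO NT libraries against 7.71 and 13.9 in the KO ES libraries (0.71 ± 0.27, adjusted p = 0.472), the 13.9 CPM of KO ES 2 being the highest value of that gene in the experiment. Of the 36 members 10 did not overlap, beside 33.3% of all tested genes. Without KO NT 1, 5 members were called, beside 1.52% of all tested genes, mt-Th, mt-Ts2 and mt-Tl2 higher and mt-Nd4 and mt-Te lower, which sets the low and high values of KO NT 2 alone against KO ES. Goblet markers rose in 7 of 7 cases here (2527 to 2598 CPM in KO NT and 4311 to 4346 in KO ES) and Paneth cell markers in 5 of 7 (3265 to 4206 against 5516 to 5643 CPM), while absorptive enterocyte markers fell in 3 of 12. All 11 early response genes were below 0 (median -0.55, 0 called by edgeR, 9 at an unadjusted p under 0.05). Their part in the mitochondrial values was not tested.

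The difference between these ES effects, KO minus WT, called 0 of 36 members by edgeR (0.109% of all tested genes called, 0.0115% as higher and 0.0979% as lower), with 5 at an unadjusted p under 0.05, beside 11.5% of all tested genes. DESeq2 called 1 (mt-Tn, lower), beside 1.22% of all tested genes, and limma-voom 0. The difference of -0.39 ± 0.18 for mt-Rnr2 had an adjusted p of 0.454, that of mt-Tn was -0.68 ± 0.17 (adjusted p = 0.156) and that of mt-Ta -0.58 ± 0.16 (adjusted p = 0.201). All 13 protein genes lay between -0.16 and -0.08. KO NT 2, the library with the highest protein share (8.56%), is subtracted in this difference, and all 13 were higher in it than in KO NT 1. The data thus do not show that the response of any mitochondrial gene to ES differed between WT and KO by the test used, which with n = 2 per group leaves standard errors of this size.

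Old was compared with young to ask what changed with age. The small ribosomal RNA and the transfer RNA genes mt-Te and mt-Tn were higher in old, and mt-Tg, mt-Ts2 and mt-Tl2 were lower. The 6 called of 36 members stand beside 7.84% of 16807 tested genes called, 4.42% as higher and 3.42% as lower, and 10 of 36 did not overlap, beside 26.4%. No protein gene was called, and the protein median was 0.11, with 12 of 13 above 0 and 0 of 13 without overlap. The highest protein value was that of mt-Nd6, with 1204, 1230 and 1550 CPM in young and 1530, 1546 and 1619 in old (0.24 ± 0.09, adjusted p = 0.132). The lowest was that of mt-Atp8 (-0.01 ± 0.05, adjusted p = 0.950). The complex IV gene mt-Co1 had 19601, 19418 and 21957 CPM in young and 20374, 21181 and 22203 in old (0.06 ± 0.07, adjusted p = 0.654), and mt-Cytb had 8174, 7986 and 9156 against 8568, 8982 and 9301 (0.08 ± 0.06, adjusted p = 0.520).

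The small ribosomal RNA mt-Rnr1 had 154, 156 and 143 CPM in young and 201, 219.7 and 192 in old, a rise of 0.44 ± 0.06 (adjusted p = 0.00204). Every old library was above every young one, and mt-Rnr1 was called in 17 of 17 other settings of the analysis, including the removal of each library. The large RNA mt-Rnr2 did not overlap either, with 1021, 1081 and 1032 against 1138, 1223 and 1156 CPM, but its smaller difference of 0.17 ± 0.05 missed the threshold (adjusted p = 0.0765). Their ratio shifted accordingly: per 100 counts of mt-Rnr2, mt-Rnr1 had 15.0, 14.5 and 13.9 counts in young and 17.7, 18.0 and 16.6 in old.

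Among the transfer RNA genes that were higher, mt-Te had 51.4, 50.7 and 66.8 CPM in young and 77.7, 80.2 and 85.5 in old (0.53 ± 0.10, adjusted p = 0.00827). All old libraries exceeded all young ones, and the call held whichever library was left out (adjusted p up to 0.0498), and in 16 of 17 settings in all. The asparagine gene mt-Tn had 28.4, 29.6 and 29.5 CPM in young against 38.0, 40.3 and 33.3 in old (0.35 ± 0.08, adjusted p = 0.0270), a call that held in 1 of 6 removals of a library. Its neighbours mt-Ta (0.32 ± 0.09, adjusted p = 0.0618) and mt-Tc (0.27 ± 0.09, adjusted p = 0.0976) did not overlap between the ages but did not pass, and mt-Ty (0.11 ± 0.10) and mt-Tw (0.09 ± 0.12) overlapped.

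The genes called as lower, mt-Tg, mt-Ts2 and mt-Tl2, were transfer RNA genes of the neighbourhood between mt-Co3 and mt-Nd5, and here the libraries of each age were uneven. The gene mt-Tl2 had 9.98, 13.3 and 4.37 CPM in young and 1.09, 0.960 and 4.88 in old (-2.03 ± 0.52, adjusted p = 0.0377). For mt-Ts2 they were 8.38, 10.9 and 3.61 against 0.754, 0.706 and 4.16 (-2.06 ± 0.54, adjusted p = 0.0432). Old 1 and old 2 were thus far below young 1 and young 2, whereas young 3 and old 3 were alike, and the age groups overlapped. The glycine gene mt-Tg had 7.80, 8.33 and 4.95 CPM in young and 1.90, 1.98 and 3.94 in old, without overlap (-1.44 ± 0.29, adjusted p = 0.0116). The remaining genes of the neighbourhood did not pass, mt-Th at -1.59 ± 0.51 (adjusted p = 0.0876, 7.74, 10.1 and 4.79 against 0.965, 0.903 and 5.82 CPM) and mt-Tr at -1.16 ± 0.36 (adjusted p = 0.0761), the latter without overlap.

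In counts, mt-Th, mt-Ts2 and mt-Tl2 together had 863, 1206 and 456 in young and 93, 91 and 475 in old. Per 10000 counts of mt-Nd4 and mt-Nd5, between which they lie, this was 29.2, 38.7 and 11.4 in young and 2.74, 2.47 and 12.8 in old. The flanking protein genes did not share the pattern, with mt-Nd4 at 0.15 ± 0.07 (adjusted p = 0.245) and mt-Nd5 at 0.16 ± 0.11 (adjusted p = 0.473). The calls of mt-Ts2 and mt-Tl2 held in 2 of 6 removals of a single library, those of young 3 and of old 3, and that of mt-Tg in 4 of 6. Neither DESeq2 nor limma-voom called mt-Ts2 or mt-Tl2, while both called mt-Tg. With no count filter mt-Rnr1 alone was called, beside 2.32% of all tested genes. The low values in KO NT 2 concern the same genes, with mt-Tl2 at 4.40 CPM there, in a table that was scaled apart.

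**Figure D5:**
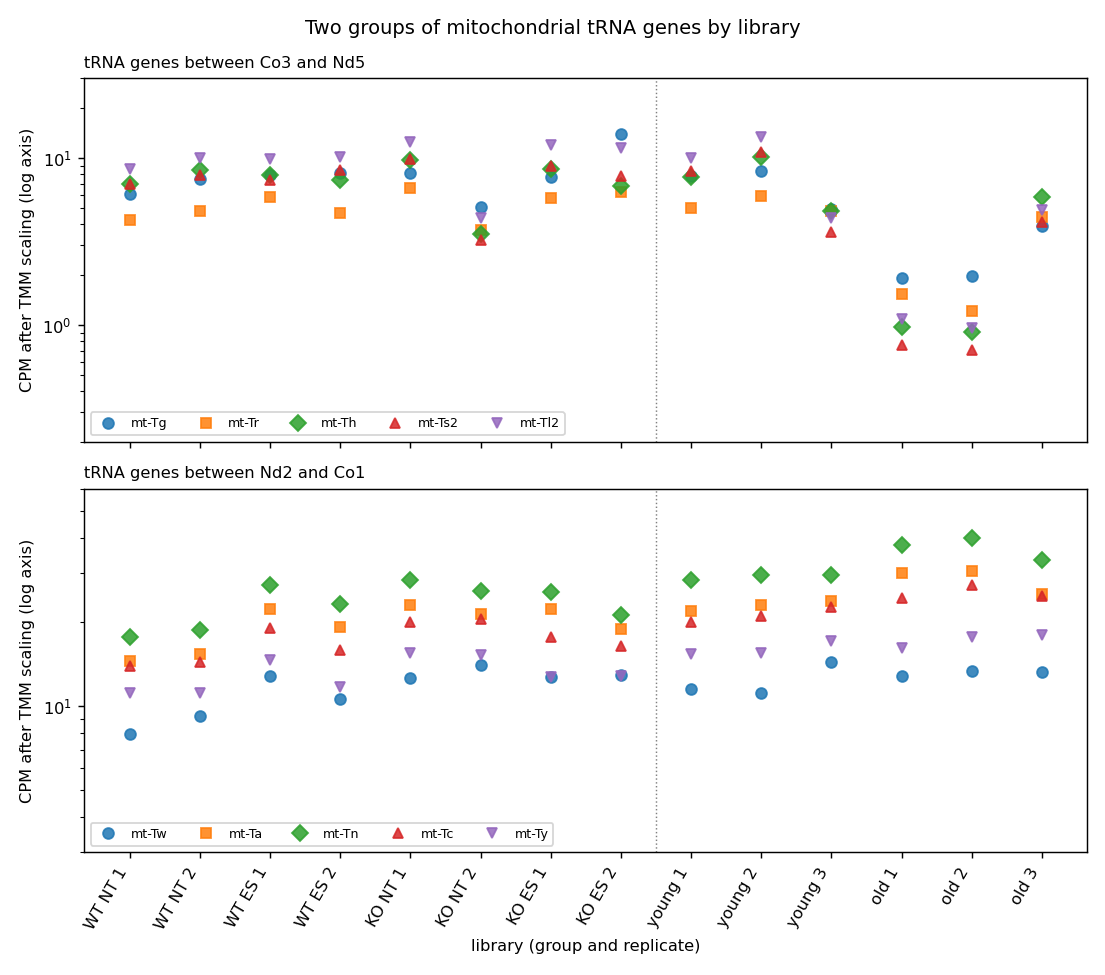
Level of the 5 tRNA genes between mt-Co3 and mt-Nd5 (top) and the 5 between mt-Nd2 and mt-Co1 (bottom) in each library, in CPM after TMM scaling on log axes, 1 symbol per gene; the tables left and right of the dotted line were scaled apart. In the top panel all 5 genes are lower in old 1 and old 2 than in the other ageing libraries and lowest in KO NT 2 among the Chrm3 libraries, and in the bottom panel WT NT 1 and WT NT 2 are lowest.

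Other measures differed with age as well. Immune markers rose in 6 of 7 tested cases (median 2.43, summed level 236 to 273 CPM in young and 738 to 1033 in old), and genes of the early response to handling in 9 of 11 (2499 to 2592 CPM against 3869 to 4518). Tuft cell markers fell in 4 of 5 tested cases. Stromal markers had summed levels of 2.24 to 3.19 CPM in young and 2.14 to 3.65 in old, with Des at 0 throughout. Their part in the mitochondrial values was not tested.

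Few nuclear genes for mitochondrial RNA and respiration were called. Of 215 such genes, all tested (21 for replication and transcription of mitochondrial DNA, 41 for RNA processing, 75 of the mitochondrial ribosome and 78 respiratory chain subunits), edgeR called 0 for KO against WT in NT (27 at an unadjusted p under 0.05, beside 17.7% of all tested genes), 2 for KO against WT in ES, both respiratory chain subunits, 1 for ES in WT, 0 for ES in KO (4 at an unadjusted p under 0.05, beside 8.6%) and 2 for old against young. DESeq2 called 2, 6, 7, 0 and 3 in these comparisons, in the same order, beside 5.44%, 9.08%, 6.01%, 1.3% and 9.72% of all tested genes. The edgeR counts lie, as shares of the 215, under the 4.47%, 7.56%, 3.48%, 0.513% and 7.84% of all tested genes called in the same comparisons. Twnk, the helicase that opens mitochondrial DNA for replication, fell with ES in WT (from 91.5 to 74.6 CPM, -0.29 ± 0.07, adjusted p = 0.0462) and was higher in old (from 67.4 to 79.4 CPM, 0.24 ± 0.06, adjusted p = 0.0488). Trub2, a pseudouridine synthase of mitochondrial RNA, was lower in old (from 22.9 to 18.2 CPM, -0.33 ± 0.09, adjusted p = 0.0378).

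Values follow for Tfam and Polrmt of transcription and for Lrpprc and Slirp of RNA stability, whose relation to the members was not tested. Tfam, which packages mitochondrial DNA and starts its transcription, had 113 to 126 CPM in the Chrm3 experiment and 107 to 114 in the ageing experiment, with log2 fold changes from -0.03 to 0.06. Polrmt, the mitochondrial RNA polymerase, ranged from -0.10 ± 0.09 for KO against WT in NT to 0.13 ± 0.09 for ES in KO. Of the pair that stabilises mitochondrial messenger RNA, Lrpprc ranged from -0.06 to -0.02. Its partner Slirp had 25.9 and 23.9 CPM in WT NT and 31.7 and 27.9 in WT ES. The KO NT libraries had 24.8 and 20.2 CPM of Slirp, the KO ES libraries 24.8 and 19.5. Its largest difference, KO against WT in ES, did not pass (-0.43 ± 0.13, adjusted p = 0.0806). In each of these 4 genes no comparison passed the test.

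Nuclear-encoded subunits of the respiratory chain, the partners of the 13 protein genes, had 78 tested members. Their medians were 0.13 for ES in WT, where 22 had an unadjusted p under 0.05, beside 18.6% of all tested genes, and 0 passed by edgeR, 0.01 for KO against WT in NT, -0.10 for KO against WT in ES and 0.05 for old against young. The mitochondrial protein genes had medians of -0.05, 0.23, 0.10 and 0.11 in these comparisons. Uqcrfs1, the iron-sulfur subunit of complex III, fell in KO against WT in ES (from 199 to 167 CPM, -0.25 ± 0.06, adjusted p = 0.0283), as did the complex I subunit Ndufv3 (from 52.8 to 42.1 CPM, -0.33 ± 0.08, adjusted p = 0.0406). The 75 genes of the mitochondrial ribosome had medians between -0.03 and 0.08 in the same comparisons, with 0 called by edgeR in each. At an unadjusted p under 0.05 there were 3, 12, 5 and 5, in the same order, beside 18.6%, 17.7%, 22.9% and 21.5% of all tested genes.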

How the data were processed

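The deposited tables hold whole-number counts per gene, without normalization, with 8 libraries in the Chrm3 table and 6 in the ageing table. Per the labels' protocols, strand-specific TruSeq libraries were made from 1 µg of Trizol-extracted total RNA. Per the submitters' processing notes, the genome was mm10 and FastQC 0.11.2 was used. No aligner or counting tool is named in the sources used here. Columns named Ctrl were read as NT. Positions and lengths are from GENCODE M21 (GRCm38), in which 55154 of 55335 identifiers were found.

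From the authors' counts, each table was filtered with filterByExpr, scaled with TMM factors and fitted with edgeR 4.0.16 (quasi-likelihood, 1 mean per group, 1 spread per table), with Benjamini-Hochberg adjustment of p over every gene tested in that table. The standard error was derived from the fold change and its F statistic. Shares, RPKM and composition were computed from counts without TMM scaling and carry no test. The fit was tested on simulated data.

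Named with values are all protein and rRNA genes, transfer RNA genes that passed the filter or had at least 10 counts in a library, Tfam, Polrmt, Lrpprc, Slirp, up to 5 called genes per role of the nuclear machinery in each comparison, and nuclear copies with counts. The members, lists and rules were chosen with earlier results of these data known. Alternatives were other scalings, filters and thresholds, DESeq2 1.42.0, limma-voom (limma 3.58.1), the older quasi-likelihood form of edgeR, a replicate term, only the groups compared, and each library left out.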

Additional observations from a re-analysis of the deposited data

How the results depend on the processing

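The number of mitochondrial genes called was the same with relative log expression factors, total counts or scaling factors computed without mitochondrial genes, and with nuclear copies added. For ES in WT (0) it was 2 at an adjusted p under 0.1, with a 1 CPM filter and with DESeq2. These calls stand beside 7.04%, 5.63% and 6.01% of all tested genes, and with only the groups compared 4 members were called. For KO in NT (7) it was 1 at an adjusted p under 0.01 and 0 with no count filter, beside 1.53% and 1.07%. For KO in ES (0) it was 1 at an adjusted p under 0.1, beside 12.5%, and 3 with only the groups compared. The difference of the ES effects (0) gave 1 with DESeq2, beside 1.22%. For old against young (6) it was 2 and 11 at an adjusted p under 0.01 and 0.1, beside 3.39% and 11.8%. With no count filter it was 1, beside 2.32%. The older quasi-likelihood form of edgeR gave 4, without mt-Ts2 and mt-Tl2, beside 7.35%. The cause was not tested. With only the groups compared, 11.4% and 8.74% of all tested genes were called for ES in WT and KO in ES. Leaving out 1 library in turn gave 0 to 3 for ES in WT, 0 to 5 for ES in KO, 0 to 18 for KO in NT, 0 to 4 for KO in ES, 0 to 2 for the difference and 2 to 10 for old against young. Where that left a group with 1 library, it was assumed to vary like the others. The removals of 2 libraries at a time were added after seeing the data. Leaving out KO NT 2 and KO ES 2 left each KO group with 1 library. In that setting mt-Co1 turned to -0.073 in KO against WT in ES, against 0.02 with all libraries. Without young 3 and old 3 the count for old against young was 14, beside 9.39% of all tested genes. These libraries were chosen for their own values of mitochondrial genes, so the values without them are a description and support no call. DESeq2 called 7, 2 and 6 of the 215 nuclear genes for ES in WT, KO in NT and KO in ES, against 1, 0 and 2 by edgeR. At 3 to 10 counts per library, the depth sets no level for mt-Tf.

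The replicate numbers were not taken as pairs. Libraries with the same number had correlated deviations from their group means (Pearson's r across genes) of -0.01 to 0.37 in the Chrm3 experiment and 0.07, 0.28 and 0.31 in the ageing experiment, and old 1 was closer to young 2 (0.17) than to young 1 (0.07). With the replicate number as a block, 2 members were called for ES in WT, 12 for KO in NT, 4 for KO in ES and 14 for old against young, beside 5.59%, 5.75%, 10.1% and 12% of all tested genes (3.48%, 4.47%, 7.56% and 7.84% without it).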

Other observations

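Among all genes with an annotated length, ranked per length within each library, the transfer RNA gene mt-Ts1 held places 28 to 35 over the 14 libraries and mt-Te places 28 to 60. The gene mt-Ts2 ran from place 241 to place 4472 and mt-Tl2 from 234 to 3990. The ratio of mt-Nd6 to mt-Nd5 per length was 94.0 to 110 per 100 in 12 libraries, 119 in KO ES 2 and 125 in KO NT 2. A further 10 annotated nuclear genes with matches under 99% had median counts from 0 to 2232 per library and were not added to any member.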
